A study of Mus musculus with 10 samples.

Results

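The genes described here encode translation initiation factors of the mouse, measured in Hedgehog-driven medulloblastoma and in the cerebellum beside it. They were taken as every gene whose symbol begins with Eif and a digit from 1 to 6, leaving out the sex-linked pair Eif2s3x and Eif2s3y, and only probe sets whose annotation names that gene and no other were used. This gave 45 genes of the 18193 named on the arrays, with 129 probe sets, 99 on the Affymetrix 430A chip and 30 on the 430B chip. Once the dimmest 25% of each chip's probe sets had been set aside, 115 probe sets of 44 genes remained among 14702 genes tested. Eif4a3, whose 1 probe set read between 1.02 and 5.23 on the 430B arrays, was the gene lost. Another 6 probe sets that name such a gene together with a second gene were not used. Eif1, Eif2s1, Eif4g1, Eif4ebp3, Eif4e1b, Eif3g and Eif3j were not among the 45 genes.

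By the labels' protocols all animals carried both alleles, CAGGS-CreER, a tamoxifen-activated Cre recombinase under a promoter active in most cell types, and R26-SmoM2, a conditional gene for an activated form of the Hedgehog signal transducer Smoothened. All received tamoxifen on postnatal day 10, and 1 mg was given for every 40 g an animal weighed. RNA from 3 medulloblastomas and from 2 pieces of adjacent cerebellum, called wild type in the labels although their protocols name the same genotype, was hybridised to each chip. The age at collection is not given in the sources used here, and neither is whether a tumour and a cerebellum piece of one number came from 1 animal. Samples of a tissue are labelled biological replicates, and the p-values measure the spread between these samples alone.

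Translation initiation assembles a ribosome at the start codon of an mRNA. The cap-binding complex eIF4F, made of the cap-binding protein eIF4E, the scaffold eIF4G and the RNA helicase eIF4A, recruits the small ribosomal subunit, which carries eIF1, eIF1A, eIF3, eIF5 and the initiator tRNA held by eIF2. eIF2B reloads eIF2 with GTP, and kinases that phosphorylate eIF2 under stress block that step, while eIF4E-binding proteins keep eIF4E from eIF4G until they are phosphorylated by mTOR.

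Intensity values were close to each other in overall level, with array medians between 33.3 and 35.9 on 430A and between 22.5 and 24 on 430B. The tissue labels were set against marker lists. All 11 granule neuron precursor markers and all 6 measured cycling-cell markers were higher in the tumours, with summed intensities on 430A of 4728 to 5977 against 255 to 541 for the first and of 2854 to 3466 against 320 to 491 for the second. All 8 markers of mature granule neurons (450 to 513 in tumours, 8973 to 9749 in cerebellum), all 6 of Purkinje cells (239 to 492 and 13263 to 16730) and all 4 of oligodendrocytes (105 to 248 and 3662 to 4546) were lower. So were 4 of 5 of interneurons (110 to 145 and 1128 to 1576) and 5 of 7 of astrocytes and Bergmann glia (585 to 1055 and 5911 to 7393), while 3 of 5 of microglia were higher (637 to 718 and 271 to 336). Of the other lists, 1 of 4 endothelial markers (132 to 176 and 139 to 143) and 1 of 3 choroid plexus markers (55.3 to 64.2 and 83.2 to 110) were lower, and neither of 2 blood markers (52.5 to 66.5 and 55.8 to 72.5) was called. The sums cover 430A probe sets alone. They hold 7 of 8 markers of mature granule neurons and 3 of 5 of interneurons. For astrocytes and Bergmann glia they hold 6 of 7, and for choroid plexus 2 of 3. None of the markers measured had an intensity of 1 or less on any array. The tissues thus differ in the mix of cells, and its part in the values below was not tested. On 430B the arrays of tumours 1 and 2 stood apart: over the 100 probe sets that both chips hold, their median log2 intensity was 8.01 and 7.96, against 7.33 for tumour 3 and 7.51 and 7.54 for the cerebellum arrays. On 430A the same probe sets had medians between 7.27 and 7.45. Tumour numbers did not seem to match between the chips either. Across these probe sets the deviations of tumour 2 on 430A correlated with those of tumour 3 on 430B (r = 0.86) and not with those of tumour 2 (r = -0.68). The deviations of 3 tumours depend on each other, and whether a number marks different animals on the 2 chips was not tested. By the design, no fit below joins the chips. Where a sample is left out, its number is removed from both chips, and that may not be the same animal on each.

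Most initiation factor genes did not pass the test between tumour and cerebellum, and most of those that did were higher in the tumours. Of the 44 genes, 10 were higher and 2 were lower at an adjusted p below 0.05 (limma), and 32 were not called. That is 22.7% higher and 4.55% lower, beside 10.7% and 16% of all genes tested. Left-out arrays moved these counts. There were 4 higher genes without cerebellum 2, 5 without cerebellum 1 and 6 without tumour 1, and there were 4 lower genes without tumour 2 and 1 without any other single array. After quantile normalization the counts were 15 higher and 1 lower. The median log2 fold change of tumour over cerebellum, on the scale of log2(intensity + 16), was 0.19 for the initiation factor genes and -0.05 for all genes. The quartiles were -0.05 and 0.62 for the former and -0.32 and 0.22 for the latter. Positive values were found for 30 of the 44 genes (68.2%) and for 44.9% of all genes. Changes of at least 1 log2 unit were fewer here than among all genes, in 3 genes (6.82%) against 13.6% of all genes. The 3 were Eif4a2, Eif4a1 and Eif1ax. All 3 tumours lay above both cerebellum arrays in 17 genes (38.6%) and below both in 5 (11.4%), beside 22.2% and 30.1% of all genes. In bulk tissue, fewer cells of a type and less RNA per cell cannot be told apart.

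**Figure D1:**
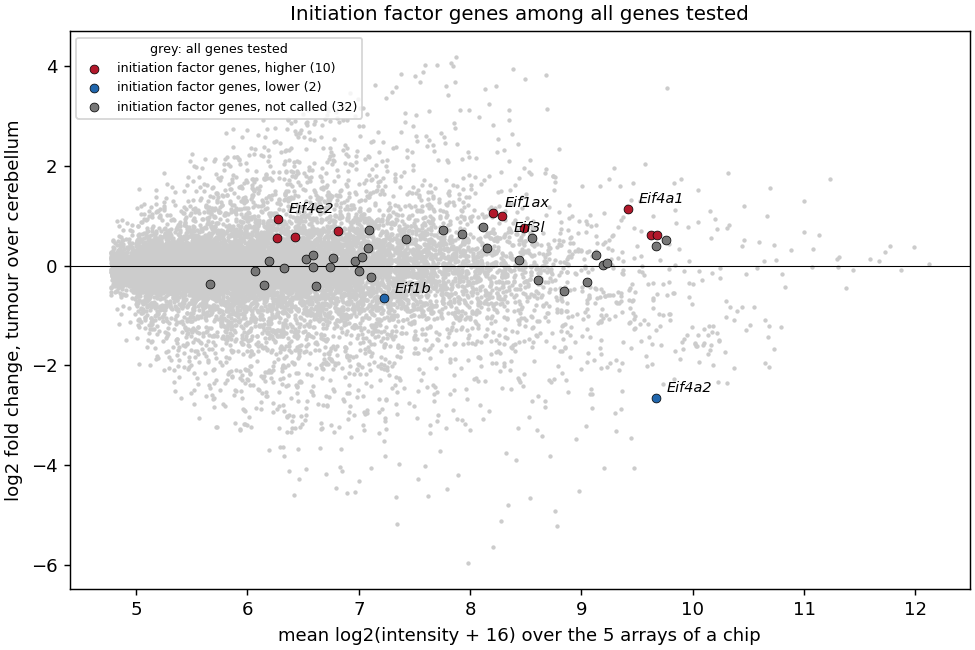
Log2 fold change of tumour over cerebellum (vertical axis) against the mean log2(intensity + 16) over the 5 arrays of a chip (horizontal axis), 1 point per gene. Grey points are the 14702 genes tested and coloured points the 44 initiation factor genes, of which 10 were higher, 2 lower and 32 not called; Eif4a2, at -2.65, lies far below the rest.

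The 2 DEAD-box helicases of eIF4F moved in opposite directions. Eif4a2, the eIF4A paralogue known for high levels in brain and other differentiated tissues, had the largest change of all initiation factor genes. Its intensity was 371, 380.4 and 370.2 in tumours 1 to 3 and 2498 and 2371 in the cerebellum samples. The tumours lay close together and the groups were far apart, with a log2 fold change of -2.65 ± 0.16 (SE, adjusted p = 1.04e-06), which is 6.28-fold lower. In order of size it was fall number 157 among the 14702 genes. Eif4a1, the paralogue known for high levels in proliferating cells, had intensities of 1076, 709 and 1018 in the tumours and 419 and 399 in cerebellum. Every tumour was above both cerebellum samples, and tumour 2 was the lowest of the tumours. The change was 1.14 ± 0.21 (adjusted p = 0.00156), and the other probe sets of Eif4a1 gave 1.33 ± 0.23 (adjusted p = 0.000932) and 1.40 ± 0.27 (adjusted p = 0.0022). On the probe set with the largest change, tumours read 904, 440 and 733 and cerebellum 253 and 230. Eif4a1 and Eif4a2 were past the threshold in every one of 19 alternative fits, with log2 fold changes between 1.03 and 1.32 and between -2.69 and -2.61 when each array was left out in turn. Markers of mature neurons fell in the same arrays as Eif4a2, and markers of cycling precursors rose with Eif4a1, by the summed intensities given above. Their part in these changes was not tested.

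**Figure D2:**
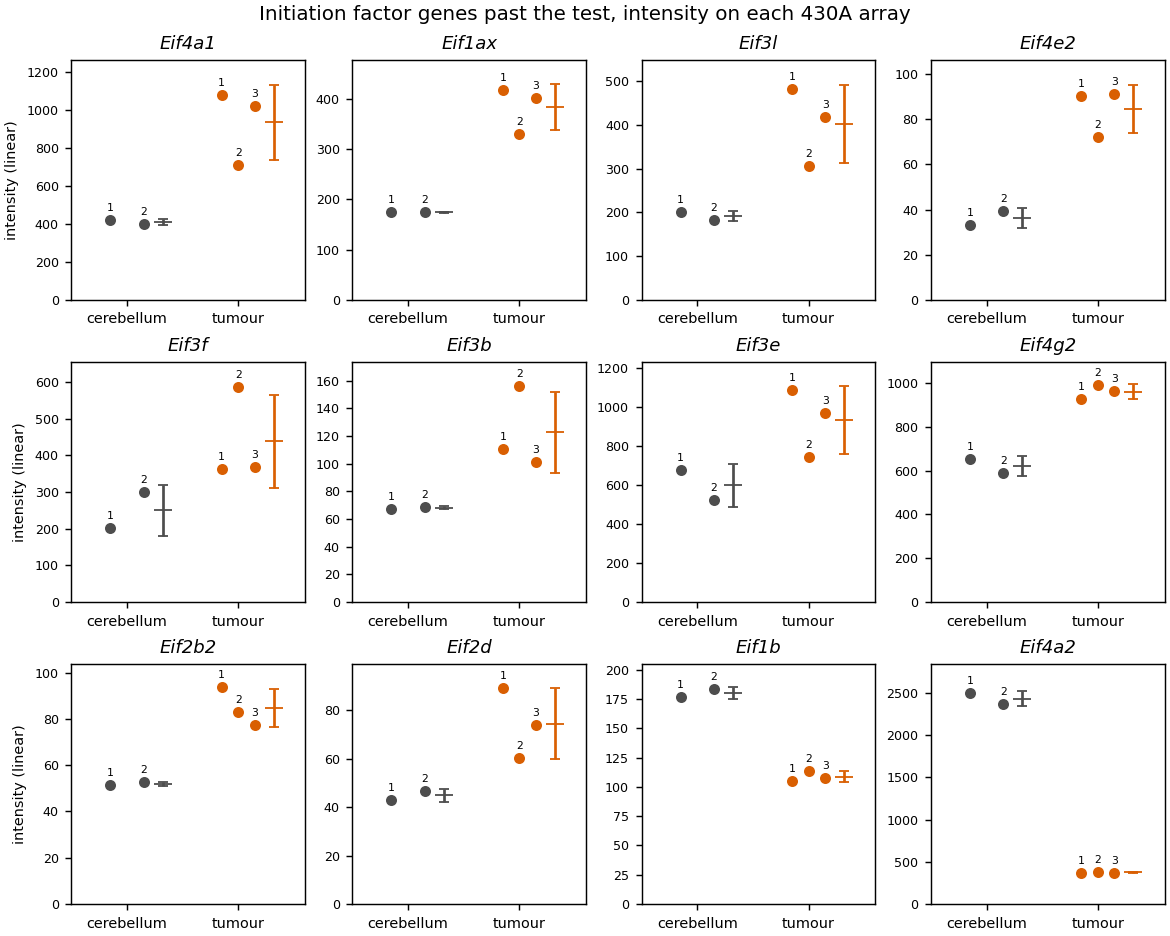
Linear intensity on each 430A array (vertical axis, starting at 0) of the 12 initiation factor genes past the test, for 2 cerebellum samples (grey) and 3 tumours (orange). Digits are the replicate numbers, and the bar beside the points is the mean with its SD; Eif4a2 lies near 2434 in cerebellum and near 374 in the tumours, and tumour 2 is the lowest tumour for Eif4a1, Eif1ax and Eif3l.

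The 250 bases before the annotated starts of this opposed pair are shown because the genes moved in different directions; capitals mark CACGTG, the E-box bound by MYC and its partner MAX. The sequences are from RefSeq on GRCm38.p6, with Eif4a1 at chr11:69672424-69672673 on the minus strand and Eif4a2 at chr16:23107218-23107467 on the plus strand. In the first the E-box begins 189 bases before the start, and in the second these letters do not occur.
Eif4a1: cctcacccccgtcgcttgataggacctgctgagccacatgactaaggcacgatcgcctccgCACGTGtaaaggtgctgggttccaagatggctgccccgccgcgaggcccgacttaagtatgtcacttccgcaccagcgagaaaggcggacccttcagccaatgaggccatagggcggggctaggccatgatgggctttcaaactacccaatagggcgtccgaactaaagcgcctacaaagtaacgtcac
Eif4a2: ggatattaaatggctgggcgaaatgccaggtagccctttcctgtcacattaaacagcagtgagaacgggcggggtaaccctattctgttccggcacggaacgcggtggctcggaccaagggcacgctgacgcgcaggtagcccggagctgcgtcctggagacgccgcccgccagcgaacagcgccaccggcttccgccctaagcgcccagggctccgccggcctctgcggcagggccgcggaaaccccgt

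The cap-binding paralogues differed from each other. Eif4e, the main cap-binding protein, had 324, 319.7 and 398 in tumours and 552 and 322 in cerebellum. These overlap, and the log2 fold change was -0.28 ± 0.24 (adjusted p = 0.442). None of its 4 tested probe sets was called, with the other 3 between -0.03 and 0.04. Without cerebellum 1, the higher of that pair, the value of Eif4e was 0.095 (adjusted p = 0.874). Eif4e2, a cap-binding relative that does not bind eIF4G and is known for repressing translation, rose. Its intensities were 90.3, 72.3 and 91.1 in tumours and 33.3 and 39.4 in cerebellum, without overlap, a change of 0.94 ± 0.17 (adjusted p = 0.00151). A further 430A probe set gave 1.42 ± 0.18 (adjusted p = 0.000112), with 72.4, 55.5 and 78.6 in tumours against 19.5 and 12.1. The remaining pair, 1 on each chip, was not called, at -0.00 and 0.17. Eif4e3, another cap-binding relative, had 243, 545 and 262 in tumours and 214 and 161 in cerebellum. Tumour 2 stood above the others, and the change of 0.77 ± 0.32 was not called (adjusted p = 0.0899). It was called after quantile normalization (0.98, adjusted p = 0.0475) and as a mean over its probe sets (0.66, adjusted p = 0.0422). The dimmer probe set of Eif4e3 was, at 0.55 ± 0.18 (adjusted p = 0.0348), with 44.4, 54.6 and 67.5 against 36.0 and 28.9.

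Among the scaffolds, Eif4g2, an eIF4G relative that lacks the eIF4E-binding site and serves cap-independent initiation, read 926, 991 and 964 in tumours and 653 and 588 in cerebellum. The groups were well apart and the change was 0.62 ± 0.16 (adjusted p = 0.014). Its call was lost without tumour 3 (adjusted p = 0.0513) and without cerebellum 2 (adjusted p = 0.118). Of its other probe sets, those on 430A gave 0.56 (adjusted p = 0.0585) and 0.36 (adjusted p = 0.19), and the one on 430B gave 0.06. Eif4g3, a full-length eIF4G paralogue, had 103, 128 and 112 in tumours and 125 and 147 in cerebellum, which overlap, and a change of -0.23 ± 0.19 (adjusted p = 0.422). The 3 probe sets of Eif4g3 on 430B lay between -0.03 and 0.13. Helicase cofactors were not called by their chosen probe sets. Eif4b, which stimulates eIF4A, had 0.10 ± 0.20 (adjusted p = 0.749), and its other probe sets 0.48 and 0.41. Eif4h, which also stimulates eIF4A, had -0.32 ± 0.24 (adjusted p = 0.349). Of its 6 probe sets 1 was called, a dim one on 430B with 35.8, 48.6 and 48.7 in tumours and 24.8 and 22.7 in cerebellum, at 0.60 ± 0.15 (adjusted p = 0.0229). With the 430B arrays scaled on the shared probe sets this was 0.35 (adjusted p = 0.343), and the call was also lost without tumour 2 or either cerebellum sample (adjusted p = 0.092, 0.118 and 0.183). Of the 9 measured genes of this role group, 3 were higher, 1 was lower and 5 were not called, with a median of 0.10.

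Genes of the eIF4E-binding proteins gave no call by their chosen probe sets in limma, 0 of 3, also at an unadjusted p below 0.05. Eif4ebp1 had 63.2, 64.9 and 50.5 in tumours and 48.5 and 61.6 in cerebellum, a change of 0.09 ± 0.17 (adjusted p = 0.756). Its dimmer probe set was called at 0.65 ± 0.16 (adjusted p = 0.00784), on intensities of 28.7, 33.0 and 22.2 against 13.9 and 9.78. Eif4ebp2, the form prominent in brain, had 61.6, 129.5 and 78.0 in tumours and 67.1 and 77.8 in cerebellum on the brightest probe set, where only tumour 2 stood out, and a change of 0.21 ± 0.25 (adjusted p = 0.588). One of its 3 other tested probe sets was called at 1.26 ± 0.22 (adjusted p = 0.00117), with 33.9, 66.0 and 30.2 in tumours and 7.58 and 8.48 in cerebellum. Tumour 2 was the highest on both. Eif4enif1, which carries eIF4E into the nucleus, had 0.17 ± 0.19 (adjusted p = 0.566).

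The measured subunits of eIF3, the scaffold on the small ribosomal subunit, all had positive values. Of 11 measured genes, 4 were higher in limma and none was lower, against 6 and none at an unadjusted p below 0.05, and the median log2 fold change was 0.55. All 23 tested probe sets had a positive log2 fold change, beside 44.9% of all 430A probe sets. Of the 23, 7 were called higher, beside 13.1% of all 430A probe sets. Probe sets of 1 gene share their target and are not independent. In 8 of the 11 genes all tumours lay above both cerebellum samples, beside 22.2% of all genes tested. The gap was narrow in Eif3i (lowest tumour 761, highest cerebellum 757) and Eif3c (251 and 247). The sign of Eif3a and Eif3h, which lay near 0 at 0.01 and 0.06, turned when single arrays were left out.

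Eif3l, a peripheral subunit, had the largest change of the complex. Tumours read 483, 307 and 419 and cerebellum 200.2 and 183, a change of 0.99 ± 0.23 (adjusted p = 0.00591). Its dimmer probe set changed by 0.79 ± 0.20 (adjusted p = 0.0115). Eif3f, whose protein carries an MPN domain, had 363, 585 and 367 in tumours and 200.4 and 299 in cerebellum. The gap between the groups was narrow, and the change was 0.76 ± 0.26 (adjusted p = 0.0439). Eif3b, an RNA-binding core subunit, had 111, 156 and 101 in tumours and 67.3 and 68.8 in cerebellum, clearly apart, at 0.70 ± 0.21 (adjusted p = 0.0237). Eif3e, first known as the integration site gene Int6, had 1084, 740.2 and 969.6 in tumours and 674 and 519.7 in cerebellum. Tumour 2 came near the cerebellum, and the change was 0.62 ± 0.21 (adjusted p = 0.0411), with 0.88 ± 0.23 (adjusted p = 0.0118) from another probe set and 0.36 and 0.18, not called, from the remaining 2. The values of Eif3d (0.64), Eif3k (0.55), Eif3m (0.54), Eif3i (0.39) and Eif3c (0.36) were positive and not called, with adjusted p between 0.062 (Eif3d) and 0.299 (Eif3c). After quantile normalization Eif3i (0.92), Eif3k (0.84) and Eif3d (0.81) passed too, which made 7 of 11 higher, and Eif3d also passed with equal array medians (0.69) and without the trend in limma (0.64). The count of higher genes was 2 without tumour 1 or with no filter on low values and 1 without either cerebellum sample. Without tumour 2 Eif3m (0.81) and Eif3k (0.66) passed the test, and without tumour 3 Eif3d (0.79) did. A second Eif3i probe set was called at 0.71 ± 0.20 (adjusted p = 0.019). With each array left out in turn, Eif3l lay between 0.85 and 1.17, Eif3b between 0.54 and 0.81, Eif3e between 0.44 and 0.80 and Eif3f between 0.49 and 1.03. Among these 5 fits the call of Eif3e held only without tumour 2 and that of Eif3f only without cerebellum 2. Eif3b lost its call without either cerebellum sample and Eif3l without cerebellum 2. Those of Eif3e and Eif3f were also lost with no filter on low values (adjusted p = 0.0624 and 0.0626).

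**Figure D3:**
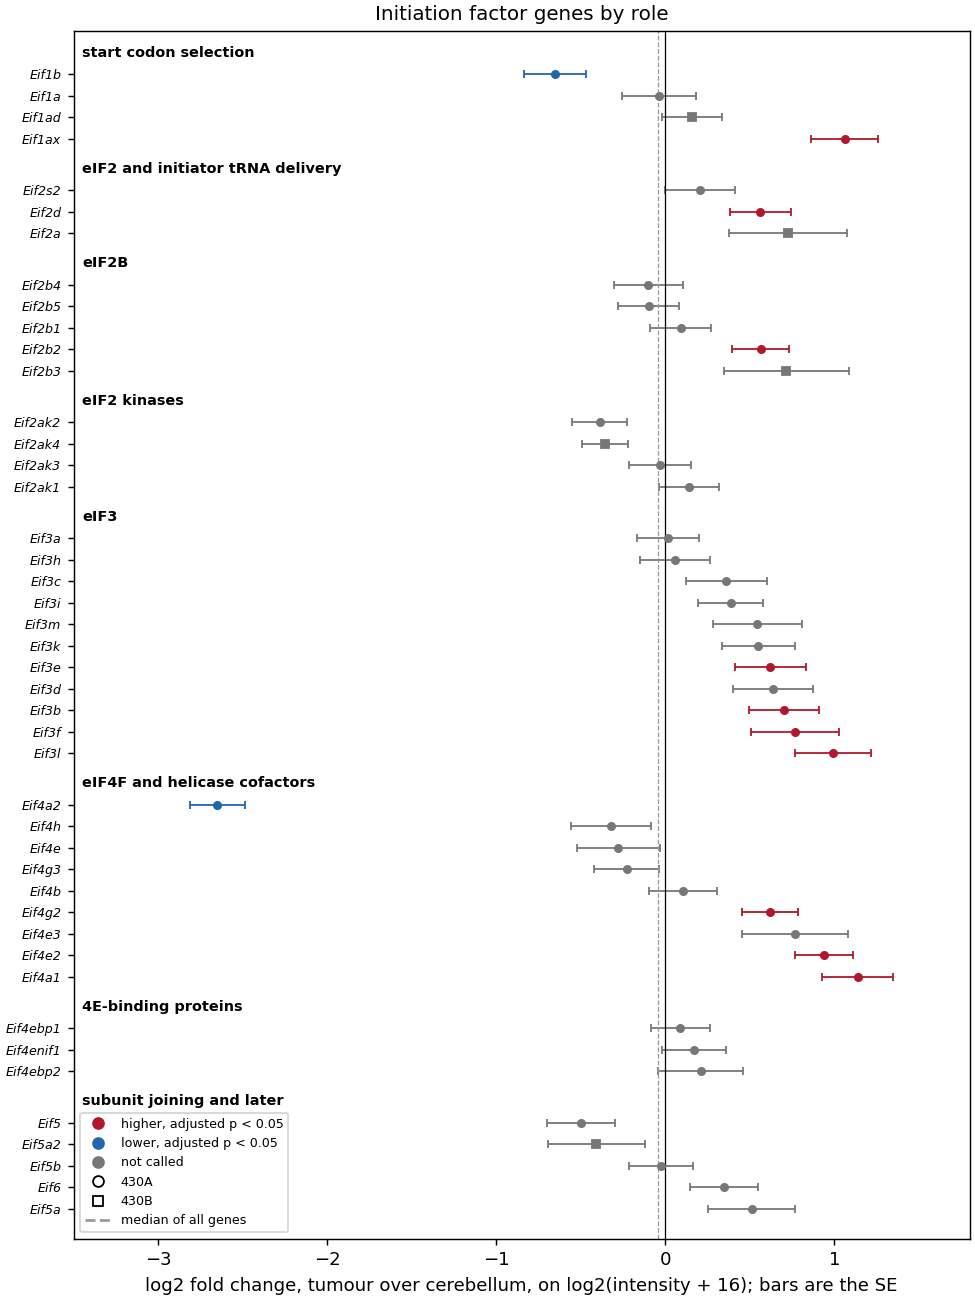
Log2 fold change of tumour over cerebellum with its SE (horizontal axis) for the 44 measured initiation factor genes, grouped by role. Circles are 430A and squares 430B probe sets, red and blue mark genes called higher and lower, and the dashed line is the median of all genes; the 11 eIF3 genes all lie at or right of 0, and Eif4a1 and Eif4a2 lie at opposite ends of their group.

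Start codon selection held genes with opposite calls, Eif1ax and Eif1b, which are not paralogues of each other. Eif1ax, the X-linked gene of the scanning factor eIF1A, had 416, 331 and 402 in tumours and 175 and 174 in cerebellum. Tumours were at about the same height and far above, with a change of 1.06 ± 0.20 (adjusted p = 0.00175). Eif1b, a close relative of the start codon gatekeeper eIF1, had 105, 114 and 107 in tumours and 177 and 184 in cerebellum. Spread within each group was small, and the change was -0.65 ± 0.18 (adjusted p = 0.0182). Quantile normalization took Eif1b to -0.50 (adjusted p = 0.0634), and its call was lost without any single array other than tumour 2. The rise of Eif1ax depended on the probe set. Its dimmer 430A probe set was at 0.02 ± 0.28 (adjusted p = 0.965), with 67.5, 30.3 and 85.6 against 58.6 and 53.6. The 430B probe set gave -0.96 ± 0.31 (adjusted p = 0.0589), with 161, 124 and 65.0 against 223 and 238, the opposite direction and also without overlap. Probe sets of Eif1a, the autosomal counterpart of Eif1ax, disagreed in the same way, with -0.04 ± 0.22 (adjusted p = 0.92) from intensities of 68.3, 43.5 and 83.4 against 69.7 and 61.5, and with 1.00 ± 0.20 (adjusted p = 0.00243) from 109.7, 72.1 and 104 against 42.7 and 35.3. The latter is of the _s_at type, whose probes can match transcripts of more than 1 gene, so its signal cannot be assigned to Eif1a alone. The same limit holds for the chosen probe sets of Eif3m, Eif4h and Eif5a, which are of the _s_at or _x_at type. It also holds for the called second probe sets of Eif3e, Eif3l and Eif4ebp1, which are of the _x_at type. Eif1ad, which holds an eIF1A-like domain, had 0.16 ± 0.18 (adjusted p = 0.632) on 430B.

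Promoter sequence is shown for Eif1ax and Eif1b too, again 250 bases before the start from RefSeq on GRCm38.p6. Both are on the plus strand, with Eif1ax at chrX:159371928-159372177 and Eif1b at chr9:120492356-120492605. Capitals mark CACGTG, which begins 24 bases before the start of Eif1b, the gene that was lower, and does not occur in that of Eif1ax, the gene that was higher.
Eif1ax: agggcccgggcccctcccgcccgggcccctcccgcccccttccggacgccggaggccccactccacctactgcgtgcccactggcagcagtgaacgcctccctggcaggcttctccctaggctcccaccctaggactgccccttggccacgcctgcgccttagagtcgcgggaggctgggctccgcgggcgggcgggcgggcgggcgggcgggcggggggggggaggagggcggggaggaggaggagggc
Eif1b: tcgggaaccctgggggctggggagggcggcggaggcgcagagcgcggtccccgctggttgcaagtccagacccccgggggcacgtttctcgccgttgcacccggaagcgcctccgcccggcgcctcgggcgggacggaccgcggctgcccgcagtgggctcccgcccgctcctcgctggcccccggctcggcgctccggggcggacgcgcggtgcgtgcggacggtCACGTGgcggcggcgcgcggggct

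The E-box occurred in promoters of genes from every class of call. Promoter windows of 250 bases before to 50 bases after a start were found for 35 of the 44 genes, 48 windows in all. CACGTG, which reads the same on both strands, was present in 9 of these genes (25.7%), beside 8.09% of the 27025 genes in the whole table. By call it was present in 2 of 8 higher genes (Eif4a1 and Eif3f), in 1 of 2 lower genes (Eif1b) and in 6 of 25 genes not called (Eif4e, Eif4h, Eif3a, Eif3k, Eif5a and Eif5a2). Among all measured genes it was present in 10.6% of those higher, 11.5% of those lower and 10.7% of those not called. The core TGATGNAA of the element bound by the stress factor ATF4, searched on both strands, was in none of the 48 windows and in 3.97% of all windows. Among windows of all measured genes it was in 2.40% of those higher, 2.52% of those lower and 2.57% of those not called. A match of letters does not show that a factor binds there.

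Among the genes of initiator tRNA delivery, Eif2d, which can place tRNA on the ribosome without eIF2, was higher. Its intensities were 89.4, 60.4 and 73.9 in tumours and 43.1 and 46.6 in cerebellum, and the change was 0.56 ± 0.18 (adjusted p = 0.0357). Of its 6 probe sets 1 was called, and the call was lost with no filter on low values (adjusted p = 0.0563) and without any single array other than tumour 2. Eif2s2, the beta subunit of eIF2, had 0.21 ± 0.21 (adjusted p = 0.517), and all of its 6 probe sets lay between 0.05 and 0.60 without a call. Eif2a, an alternative tRNA-binding factor, had 340.5, 313 and 141 in tumours and 162 and 127 in cerebellum on 430B. Tumours 1 and 2 were high and tumour 3 was not, and the change was 0.72 ± 0.35 (adjusted p = 0.206). It was 1.10 (adjusted p = 0.000193) without tumour 3 and -0.03 without tumours 1 and 2. Of the 5 subunits of the exchange factor eIF2B, Eif2b2 was higher, with 93.8, 82.8 and 77.5 in tumours and 51.2 and 52.6 in cerebellum, a change of 0.57 ± 0.17 (adjusted p = 0.0245). Its other probe sets gave 0.30 and 0.08 and were not called, and the call was lost without tumour 1 (adjusted p = 0.0816) or either cerebellum sample (adjusted p = 0.16 and 0.149). Eif2b3 on 430B had 211, 211 and 73.2 in tumours and 90.8 and 80.0 in cerebellum, with 0.72 ± 0.37 (adjusted p = 0.244). The same pair of arrays was high, and the value was 1.16 (adjusted p = 4.03e-05) without tumour 3 and -0.18 without tumours 1 and 2. Eif2b1 (0.09), Eif2b4 (-0.10) and Eif2b5 (-0.10) were near 0.

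Kinases of eIF2 gave no call by their chosen probe sets in limma, 0 of 4, with 2 lower and 0 higher at an unadjusted p below 0.05. Eif2ak2, the double-stranded RNA sensor PKR, had 45.9, 52.9 and 44.9 in tumours and 72.5 and 62.7 in cerebellum, below in every tumour, at -0.39 ± 0.16 (adjusted p = 0.0948). It was -0.44 (adjusted p = 0.0393) without tumour 2. The 430B probe set of Eif2ak2 fell from 62.7 and 56.6 in cerebellum to 7.69, 12.8 and 10.0 in tumours, a change of -1.53 ± 0.14 (adjusted p = 5.17e-05). The other 430A probe set, with 21.0, 11.1 and 35.9 against 21.6 and 11.7, gave 0.21 ± 0.24 (adjusted p = 0.576). Eif2ak4, the amino acid sensor GCN2, had 30.1, 27.2 and 32.4 in tumours and 41.7 and 44.1 in cerebellum on 430B, apart but not called, at -0.36 ± 0.14 (adjusted p = 0.109). Eif2ak1, the heme-regulated kinase, had 86.1, 76.8 and 76.6 against 62.7 and 80.0, with 0.14 ± 0.18 (adjusted p = 0.614). Eif2ak3, the endoplasmic reticulum stress sensor PERK, had 69.7, 83.3 and 86.7 against 73.4 and 90.8, with -0.03 ± 0.18 (adjusted p = 0.925). Groups overlapped in both.

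None of the 5 genes of subunit joining and later steps was called by its chosen probe set in limma, and 1 was lower at an unadjusted p below 0.05. Eif5, which makes eIF2 hydrolyse GTP at the start codon, had 323, 444 and 398 in tumours and 554 and 547 in cerebellum, below in every tumour, at -0.50 ± 0.20 (adjusted p = 0.0831). Without tumour 2 it was -0.60 (adjusted p = 0.0195). One Eif5 probe set lies on both chips and gave -0.35 ± 0.19 (adjusted p = 0.198) on 430A, with 359, 323 and 397 against 464 and 459, and 0.13 ± 0.32 (adjusted p = 0.841) on 430B, with 663, 525 and 355 against 468 and 444. The 430B arrays of tumours 1 and 2 were thus the high ones for this probe set too. Eif5a, the hypusine-bearing factor that helps ribosomes past difficult sequences, had 1049, 1238 and 734 in tumours and 532 and 883 in cerebellum. The groups overlapped, at 0.51 ± 0.26 (adjusted p = 0.167), and after quantile normalization the value was 1.03 (adjusted p = 0.00425). Eif5a2, its paralogue, had 93.2, 93.9 and 40.1 in tumours and 93.4 and 107 in cerebellum on 430B, at -0.41 ± 0.29 (adjusted p = 0.404). With the 430B arrays scaled on the shared probe sets it was -0.70 (adjusted p = 0.0302), and without tumours 1 and 2 it was -1.05 (adjusted p = 3.48e-06). Eif5b, the GTPase of subunit joining, had -0.03 ± 0.19 (adjusted p = 0.939) and another probe set called lower at -0.60 ± 0.19 (adjusted p = 0.0323), with 36.1, 31.6 and 54.1 against 71.7 and 65.6. Eif6, which keeps the large subunit apart until needed, had 0.35 ± 0.20 (adjusted p = 0.221).

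Probe sets of a gene could disagree in their call. The 88 tested on 430A held 20 higher and 3 lower, beside 13.1% and 19.0% of all probe sets of that chip. The 27 on 430B held 1 of each, beside 7.85% and 9.77%. Of 31 genes with more than 1 tested probe set, 14 held called and uncalled probe sets side by side (45.2%, beside 32.3% of all genes with more than 1), and no gene had 1 probe set called higher and another called lower. Every tested probe set was higher in 4 genes, Eif4a1, Eif3b, Eif3f and Eif3l, and lower in 2, Eif4a2 and Eif1b. Only Eif4a1 and Eif3l of these 6 have more than 1 tested probe set. At least 1 probe set was higher in 16 genes (36.4%, beside 13.7% of all genes) and lower in 4 (9.09%, beside 19.4%). When the mean over the probe sets of a gene was tested instead, Eif1ax (0.54, adjusted p = 0.0961), Eif2b2 (0.32, adjusted p = 0.158), Eif2d (0.27, adjusted p = 0.167) and Eif3e (0.51, adjusted p = 0.0636) were no longer called.

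**Figure D4:**
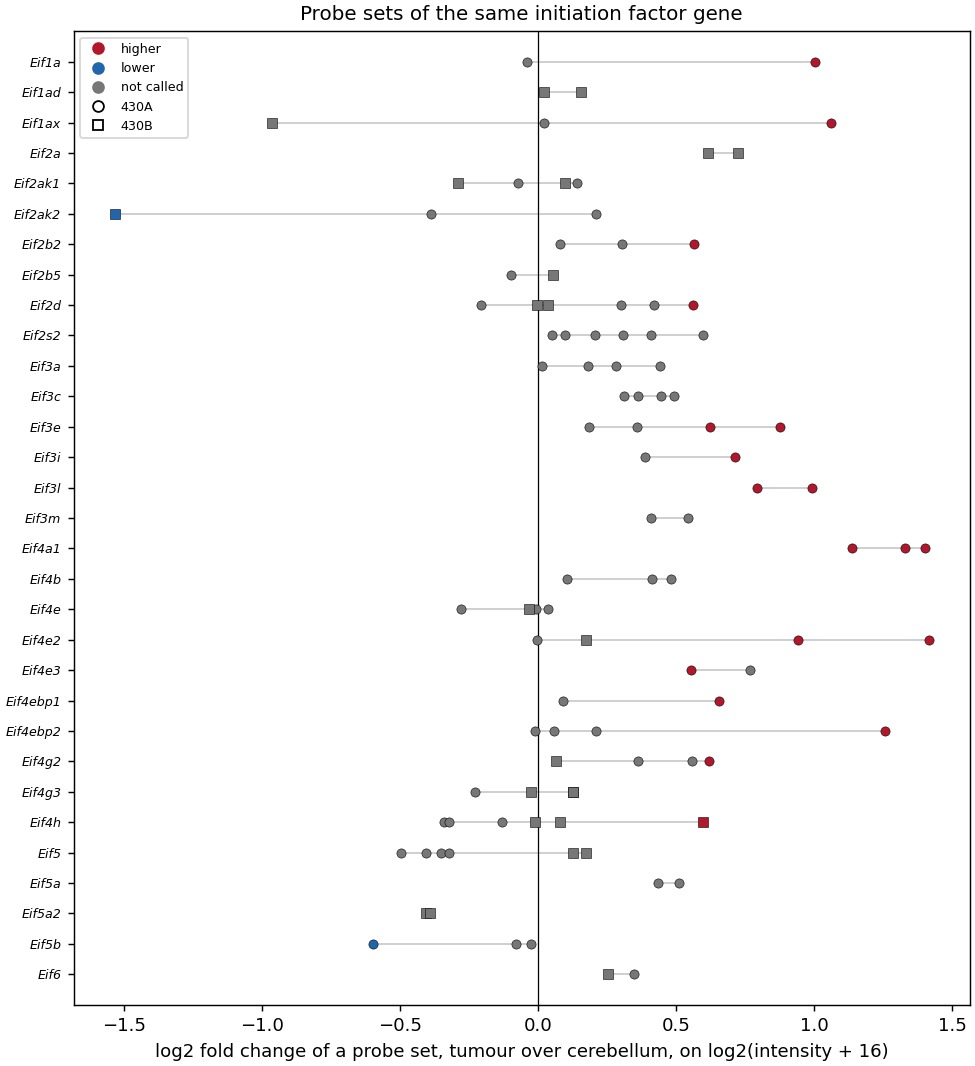
Log2 fold change of tumour over cerebellum (horizontal axis) for each tested probe set of the 31 initiation factor genes with more than 1, 1 row per gene. Circles are 430A and squares 430B, red is higher, blue lower and grey not called; the probe sets of Eif4a1 lie together on the right, while those of Eif1ax and Eif2ak2 spread to both sides of 0.

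Tumours also varied among themselves. Of the 10 higher genes, all on 430A, tumour 2 was the lowest tumour in 6 (60%), beside 52.0% of the 1204 genes of 430A called higher, and tumour 1 the highest in 6, beside 38.5%. The summed granule precursor markers of tumour 2, at 5977, were the highest of the tumours, and its summed cycling markers, at 2946, were between those of the others.

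Other genes of translation were measured in 8 lists. Their calls stand beside 10.7% higher and 16% lower among all genes tested. Whether the lists differ from those shares was not tested. Of 8 elongation factor genes, 2 were higher and 1 lower. Eef1a2, the form of the tRNA-delivering factor found in mature neurons and muscle, had 84.6, 153 and 18.7 in tumours and 228 and 588 in cerebellum, spread within both groups, at -2.19 ± 0.55 (adjusted p = 0.0106). Eef1a1, its widely expressed counterpart, had 0.03 ± 0.12 (adjusted p = 0.888), while the exchange factor genes Eef1b2 (0.98 ± 0.18) and Eef1d (0.85 ± 0.21) were higher. Among 6 genes of termination and recycling, the release factors Gspt1 (0.98 ± 0.20) and Etf1 (0.57 ± 0.19) were higher and Gspt2 (-0.42 ± 0.14), a paralogue of Gspt1, was lower (adjusted p = 0.0447). The call of Gspt2 was lost with quantile normalization, equal medians, no filter or no trend (adjusted p from 0.0617 to 0.0732) and without any single array other than tumour 2, as was that of Etf1 without those arrays. Of 11 poly(A)-binding proteins and cap-complex regulators, Pabpc1, which links the mRNA tail to eIF4G, was higher at 1.32 ± 0.24, and Cyfip2 (-1.77 ± 0.27), a partner of the RNA-binding protein FMRP, and Paip1 (-1.08 ± 0.23), a partner of the poly(A)-binding protein, were lower. Bzw1 (0.73 ± 0.24), an eIF5 mimic, was the 1 gene called among 6 other scanning factors. Of 9 genes of mTOR signalling, 3 were lower, among them Rheb (-1.48 ± 0.20), the GTPase that activates mTOR, and Mtor itself (-1.02 ± 0.18), and Tsc2 (0.65 ± 0.17), the inhibitor of Rheb, was higher. Among 8 genes of the stress response to eIF2 phosphorylation and of the eIF2 phosphatase, Ddit3 (-0.62 ± 0.17) was lower. Atf4, the translationally controlled regulator of that response, had 0.03 ± 0.21 (adjusted p = 0.929). Of the 15 calls in these lists, those of Eef1b2, Gspt1, Pabpc1, Cyfip2, Rheb and Mtor held in all 5 fits that left out an array. Bzw1 and Tsc1 (-0.50, the remaining lower gene of mTOR signalling) lost their calls without any array but tumour 2, Ddit3 without tumour 3 or either cerebellum sample and Tsc2 without either cerebellum sample. Eef1a2 lost it without cerebellum 2 (-1.54, adjusted p = 0.126), and Eef1d and Paip1 without cerebellum 1. These calls also depended on the probe set. As a mean over the probe sets of a gene, Mtor (-0.24), Tsc1 (0.02) and Etf1 (0.42) were not called in limma (adjusted p from 0.0753 to 0.921). With 430B taken before 430A, Gspt1 (0.09), Eef1d (-0.17), Paip1 (-0.27) and Ddit3 (-0.24) were not called (adjusted p from 0.286 to 0.885). The remaining calls of these lists held in both. In limma no gene was called, nor below an unadjusted p of 0.05, among the hypusine enzymes Dhps (-0.21) and Dohh (0.37) and the mitochondrial initiation factors Mtif2 (0.08) and Mtif3 (-0.03).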

How the data were processed

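RNA was extracted with Trizol and turned into biotinylated cRNA by the Affymetrix procedure, per the labels' protocols. The values are linear intensity per probe set and array, as deposited by the authors. How they were summarised, scaled and background-corrected is not stated in those labels. Each array held 298 to 477 values of exactly 1. No detection call was used, and the number of arrays limits the precision. Every table column was mapped (0 left).

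Tests ran on log2(value + 16), which understates changes of dim probe sets. Array medians differed by at most 0.0729 on 430A and 0.0544 on 430B, so none was normalized further. The chips were fitted separately in limma 3.58.1 under R 4.3.3 (lmFit, eBayes with trend, two-sided), 3 tumours against 2 cerebellum samples, on the 16969 and 16883 probe sets left after the lowest 25% were removed. Benjamini-Hochberg adjustment covered all tested probe sets of a chip. Probe sets were named by the platform annotation, with Entrez identifiers checked against the reference. A gene's chosen probe set is on 430A before 430B, then of a suffix other than _s_at and _x_at, then of the highest mean.

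The members, the role groups, the 8 lists of other translation genes and the 11 marker lists were chosen with earlier results of these data known. Array values were planned for up to 8 rises and 8 falls past the test and for the paralogue sets. They are also given for some further members, such as Eif2a, Eif2b2, Eif2b3, Eif2d, Eif4h, Eif5 and Eif5b. Up to 3 called genes per other list were to be named, and Tsc1 is named besides. Alternatives, 17 planned and 2 added after seeing the data, changed 1 choice at a time. A planned comparison of protein sequences was not run. Figures used matplotlib 3.10.9 in Python 3.11.15.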

Additional observations from a re-analysis of the deposited data

How the results depend on the processing

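Of the 12 called initiation factor genes, 2 (Eif4a1 and Eif4a2) were past the threshold in all 19 alternatives, some of which could not change them. All 12 kept their direction in the 5 fits that left out 1 array. Over all alternatives 10 kept it, and Eif1ax and Eif2d, both called higher, reversed with 430B taken before 430A (-0.96 and -0.0042). A fit with 1 cerebellum array left assumes that it varies like the tumours. Leaving out each array in turn gave 4 to 11 initiation factor genes higher and 1 to 4 lower, a median of 0.14 to 0.29, 875 to 1799 of all genes higher and 1433 to 2507 lower, 9 to 28 probe sets higher and 1 to 5 lower on 430A, and 0 to 4 higher and 1 to 2 lower on 430B. The 4 genes higher were without cerebellum 2, and without cerebellum 1 there were 5. Where 430B gave 0 higher in limma, 1 or 2 had an unadjusted p below 0.05.

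Quantile normalization gave 1 gene lower, a median of 0.46, 35 probe sets higher and 1 lower on 430A and 2 lower on 430B. Scaling 430B by what both chips hold left it 0 higher (0 at an unadjusted p below 0.05) and 3 lower, and without its tumours 1 and 2 it had 3 lower. At an adjusted p below 0.01, 4 genes were higher and 1 lower, with 986 of all genes higher, 10 probe sets higher and 1 lower on 430A and 0 higher on 430B (2 at an unadjusted p below 0.05). The mean over probe sets gave a median of 0.32, and taking 430B before 430A gave 6 genes higher and a median of 0.13.

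The replicate block, with the shared numbers of tumour and cerebellum in the fit, gave 14 initiation factor genes higher, Eif4e3 (0.92), Eif5a (0.72), Eif3d (0.79), Eif2a (1.10) and Eif2b3 (1.16) among them and Eif3e (0.58) no longer, and 2 lower, and on 430B 4 probe sets higher and 2 lower. No cerebellum sample has number 3, so tumour 3 did not add to the log2 fold changes of this fit. They come from tumours 1 and 2 and equal those without tumour 3, as for Eif2a (1.10) and Eif2b3 (1.16). The labels do not say whether a number marks 1 animal, and the numbers were not taken as pairs. Deviations of number 1 correlated at -0.03 on 430A and 0.11 on 430B, and those of number 2 at 0.17 and 0.02.

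Of the 32 genes not called, 17 changed sign and 12 were called under some alternative. With quantile normalization Eif1a was 0.026, Eif2ak3 0.065, Eif2b4 0.022, Eif4e 0.0040, Eif4h 0.089 and Eif5b 0.083. With equal medians Eif1a was 0.013, Eif2ak3 0.022 and Eif5b 0.027. With the block Eif2b4 was 0.022, Eif3a -0.060, Eif3h -0.038 and Eif5b 0.025. Scaling 430B took Eif1ad to -0.14, and leaving out its tumours 1 and 2 took Eif2a to -0.029 and Eif2b3 to -0.18. The brightest probe set gave 1.00 and the mean 0.48 for Eif1a. With 430B first, Eif2ak1 was -0.29, Eif2b5 0.052, Eif4g3 0.13 and Eif5 0.13. Leaving out arrays gave ranges across 0 for Eif1a (-0.20 to 0.17), Eif2ak1 (-0.0034 to 0.28), Eif2ak3 (-0.16 to 0.097), Eif2b4 (-0.21 to 0.022), Eif2b5 (-0.24 to 0.049), Eif3a (-0.068 to 0.096), Eif3h (-0.087 to 0.21), Eif4e (-0.65 to 0.095), Eif4ebp1 (-0.045 to 0.22), Eif4ebp2 (-0.047 to 0.41) and Eif5b (-0.20 to 0.15). The cause of these shifts was not tested.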
